A study of Homo sapiens with 12 samples.

Results

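Goblet cells and the other secretory cells of the intestine make mucus and the peptides that protect the epithelium. The 10 genes described here mark that lineage. They were chosen by name: the transcription factors ATOH1 and SPDEF, the disulfide isomerase family members AGR2 and AGR3, the trefoil peptides TFF1, TFF2 and TFF3, the mucus protein FCGBP, the lectin REG4 and the protease inhibitor SPINK4. Each had exactly 1 transcript cluster (the probes of a locus, summarised to a single value) under its symbol alone, so the 10 genes are 10 of the 67528 clusters on the array. Both cell lines, HT-29 and SW480, were established from human colorectal adenocarcinomas. In both lines RNA was taken 72 h after the medium had been changed to one with 10000 ng/mL folic acid (FA) or to one with 0 ng/mL FA. Every culture had first grown in ordinary RPMI medium with serum. The 4 groups were HT-29 at 10000 ng/mL, HT-29 at 0 ng/mL, SW480 at 10000 ng/mL and SW480 at 0 ng/mL, with 3 arrays each, 12 in all. FA had been dissolved in NaOH, and the cells at 0 ng/mL received no additional substance, so effects of FA and of its solvent cannot be told apart in these arrays.

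As background, a progenitor in the crypt enters the secretory lineage when it expresses ATOH1. Notch signalling, through the repressor HES1, keeps ATOH1 off in neighbouring cells, which become absorptive. SPDEF acts downstream of ATOH1 and drives the maturation of goblet cells, in which AGR2 works in the endoplasmic reticulum and is needed for making the mucin MUC2. Trefoil peptides, FCGBP, REG4 and SPINK4 are secreted products of mature mucous or goblet cells. HT-29 is known for giving rise to mucus-secreting sublines, while SW480 is regarded as poorly differentiated.

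All values below are log2 signals, and a difference of 1 means a doubled signal. Signals of different clusters depend on their probes and were therefore compared only across samples, never between genes. The files hold no detection calls. As a guide to the signal without expression, the 477 clusters of olfactory receptors, a family not known for expression in colon epithelium, were used. Their 95th percentile lay between 4.55 and 5.11 on 11 of the arrays and at 5.51 on HT-29 0 ng/mL replicate 3. That array stood apart: it correlated at 0.944 to 0.954 with the other HT-29 arrays, which correlated with one another at 0.988 to 0.995, and results that rest on it are given with and without it. Colon epithelium markers were present, 7 of 9 above the olfactory 95th percentile on all arrays of each group, though not the same 7 in both lines. KRT20 exceeded it on 0 SW480 arrays and CDX2 on 1 HT-29 array. These markers also differed in level between the lines. At 10000 ng/mL, 6 of the 9 were called higher and 2 lower in HT-29 by the test described below. Over all clusters 15.1% were higher and 26% lower. The widest gap was that of KRT20 (9.73). The labels call the replicates biological but do not state separate cultures, so the p-values reflect only how far these samples spread, which may be technical.

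Only part of the secretory gene set had a signal above that guide. SPDEF exceeded the olfactory 95th percentile on 6 of 6 HT-29 and 6 of 6 SW480 arrays, and AGR2 on 6 of 6 HT-29 and 0 of 6 SW480 arrays. AGR3 did so on 2 HT-29 arrays and 0 SW480 arrays, and TFF2 on 1 HT-29 array and 4 SW480 arrays. ATOH1, TFF1, TFF3, FCGBP, REG4 and SPINK4 did so on 0 of the 12 arrays. Only SPDEF, in both lines, and AGR2, in HT-29, thus exceeded the olfactory 95th percentile on all arrays of a line. The goblet cell label was not borne out for most of the set. ATOH1 and most genes of mature goblet cell products were at a level also seen for olfactory receptors. For these 6 genes the differences given below are differences near the background, where a change in expression can leave the signal almost unmoved.

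**Figure D1:**
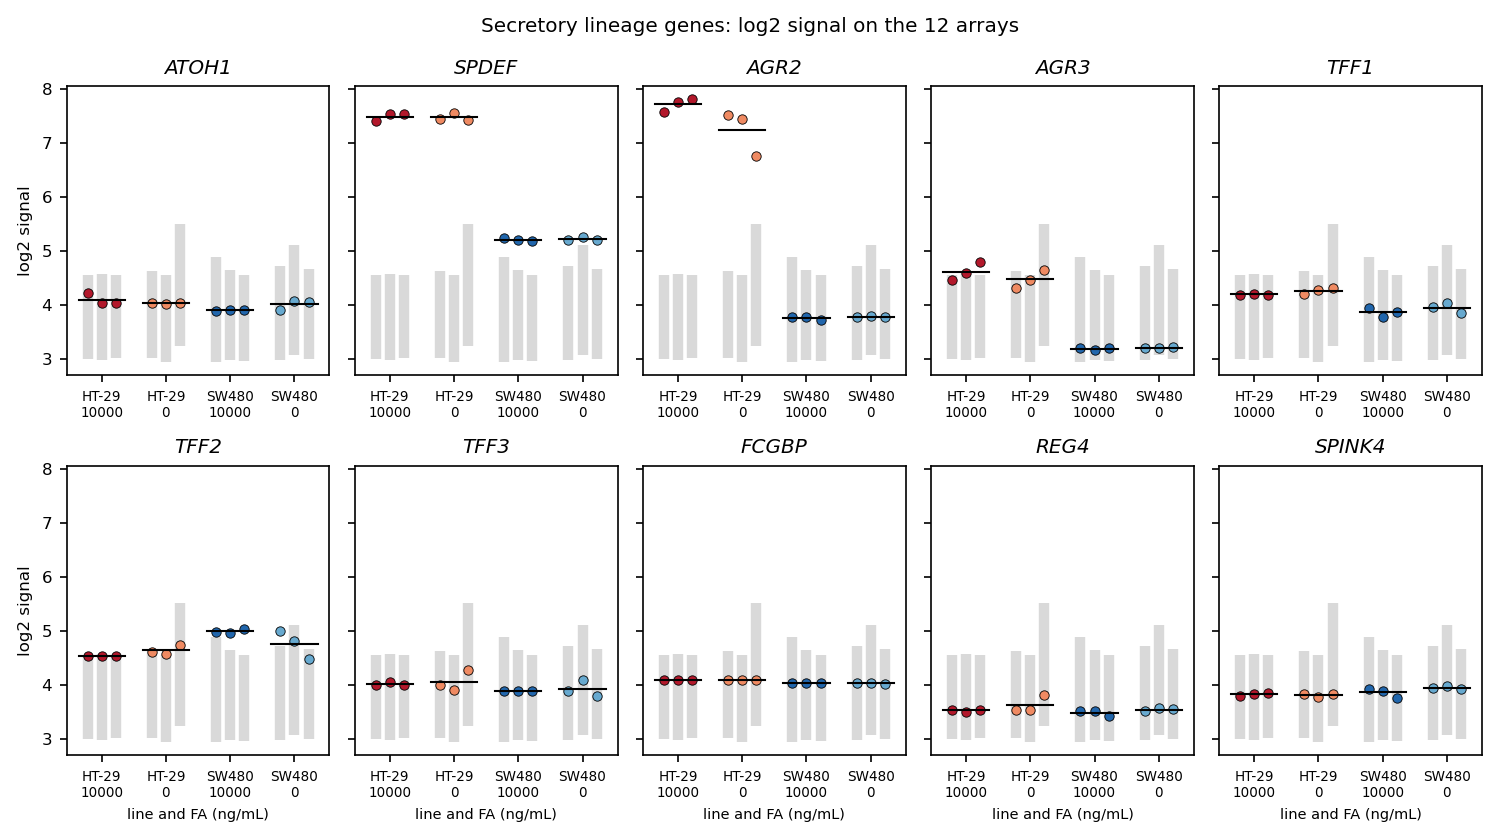
Log2 signal (vertical axis) of each secretory lineage gene on the 12 arrays, by line and FA in ng/mL (horizontal axis). Points are arrays in the order of replicates 1, 2 and 3, black lines are group means, and the grey bar behind each point spans the 5th to 95th percentile of 477 olfactory receptor clusters on that array. SPDEF and AGR2 in HT-29 lie well above the bars, while ATOH1, TFF1, TFF3, FCGBP, REG4 and SPINK4 lie within them on all arrays.

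The lines were first compared with each other at each FA level, since these contrasts use different arrays. Differences are HT-29 minus SW480, tested with limma over all clusters and called at a Benjamini-Hochberg adjusted p under 0.05. At 10000 ng/mL, 6 of the 10 genes were called, 5 higher and 1 lower in HT-29, where 41.1% of all clusters were called (15.1% higher and 26% lower). At 0 ng/mL, 4 were called, all of them higher in HT-29, beside 42.7% of all clusters (18% higher and 24.7% lower). With arrays weighted by their quality 7 were called at 0 ng/mL, beside 68.9% of clusters. Since the lines differed at so many clusters, these counts alone do not set the 10 genes apart. By the criteria of the study's methods, which take a fold change of 1.5 or more at an unadjusted p up to 0.05, the same 3 genes (SPDEF, AGR2 and AGR3) were called at either FA level, against 26.3% of clusters at 10000 ng/mL and 27.6% at 0 ng/mL. The median difference of the 10 genes was 0.16 at 10000 ng/mL and 0.11 at 0 ng/mL, against -0.07 at 10000 ng/mL and -0.01 at 0 ng/mL over all clusters. RNA of a whole culture was measured, so fewer cells of a type and less RNA per cell cannot be told apart.

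SPDEF, the ETS family factor of goblet cell maturation, was several times higher in HT-29. Its signals were 7.41, 7.54 and 7.54 in HT-29 and 5.24, 5.20 and 5.18 in SW480 at 10000 ng/mL. At 0 ng/mL they were 7.45, 7.56 and 7.43 in HT-29 and 5.20, 5.27 and 5.20 in SW480. The lowest HT-29 array was above the highest SW480 array by a wide margin, and the replicates of each group lay close together. The difference was 2.29 ± 0.06 (SE) at 10000 ng/mL, a 4.89-fold higher signal (95% interval 4.45 to 5.37, limma adjusted p = 2.34e-09). It was 2.26 ± 0.06 (SE) at 0 ng/mL (4.78-fold, 4.35 to 5.25, limma adjusted p = 2.68e-09). The SW480 signals lay not far above the olfactory 95th percentile, which ran from 4.55 to 5.11 on the SW480 arrays. These folds thus compare a clear signal with one closer to background.

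AGR2, the isomerase that folds mucins, had the widest difference between the lines among the 10 genes. At 10000 ng/mL the signals were 7.59, 7.77 and 7.82 in HT-29 and 3.77, 3.77 and 3.72 in SW480. At 0 ng/mL they were 7.53, 7.45 and 6.77 in HT-29 and 3.77, 3.79 and 3.77 in SW480. All SW480 values lay in the range of the olfactory receptors, so the fold compares a clear signal with one near background. The signal was 15.7-fold higher in HT-29 at 10000 ng/mL (12.1 to 20.4, log2 difference 3.97 ± 0.17 SE, limma adjusted p = 5.41e-08) and 11.1-fold higher at 0 ng/mL (8.56 to 14.4, 3.47 ± 0.17 SE, limma adjusted p = 1.4e-07). Without HT-29 0 ng/mL replicate 3, the lowest of the HT-29 arrays, the difference at 0 ng/mL was 3.71.

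AGR3, the close relative of AGR2, differed in the same direction. It stood at 4.46, 4.60 and 4.80 in HT-29 and at 3.20, 3.16 and 3.20 in SW480 at 10000 ng/mL. At 0 ng/mL it stood at 4.31, 4.47 and 4.65 in HT-29 and at 3.20, 3.20 and 3.22 in SW480. The lines did not overlap, although most HT-29 values were still below the olfactory 95th percentile. HT-29 was 2.7-fold higher at 10000 ng/mL (1.43 ± 0.10 SE, limma adjusted p = 1.91e-06) and 2.41-fold higher at 0 ng/mL (1.27 ± 0.10 SE, limma adjusted p = 4.7e-06). AGR2 and AGR3 are direct neighbours on chromosome 7 in RefSeq, between TSPAN13 and AHR. TSPAN13, on the other side of AGR2, was higher in HT-29 as well, by 0.87 at 10000 ng/mL (limma adjusted p = 0.000207) and by 0.73 at 0 ng/mL (limma adjusted p = 0.000683). Over all clusters 15.1% were called higher at 10000 ng/mL and 18% at 0 ng/mL. TSPAN13 was picked after its values were seen, and AHR was not read. A link between these differences and the position of the genes was not tested.

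The promoters of SPDEF, AGR2 and AGR3 are shown because these genes were higher together in HT-29. That of SPINK4, which stayed near background in both lines, is set beside them. RefSeq's promoter table (GRCh38.p14) held 7 of the 10 genes, TFF1, TFF2 and TFF3 not among them. Each sequence runs 5′ to 3′ along the gene from 250 bases before its start to 50 after, at chr6:34556280-34556579 (minus strand), chr7:16804950-16805249 (minus), chr7:16881934-16882233 (minus) and chr9:33239917-33240216 (plus). Capitals mark matches on either strand to TATAAA (the element before many transcription starts), TGTTTAC (bound by FOXA factors), CAGCTG (an E-box) and the ETS motif CCGGAA with its variant CCGGAT.
SPDEF: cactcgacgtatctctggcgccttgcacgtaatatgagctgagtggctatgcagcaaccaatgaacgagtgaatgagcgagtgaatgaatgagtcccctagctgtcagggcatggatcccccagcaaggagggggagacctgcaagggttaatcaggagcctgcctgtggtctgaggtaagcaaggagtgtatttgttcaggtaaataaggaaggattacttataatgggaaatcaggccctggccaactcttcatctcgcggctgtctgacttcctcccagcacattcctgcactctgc
AGR2: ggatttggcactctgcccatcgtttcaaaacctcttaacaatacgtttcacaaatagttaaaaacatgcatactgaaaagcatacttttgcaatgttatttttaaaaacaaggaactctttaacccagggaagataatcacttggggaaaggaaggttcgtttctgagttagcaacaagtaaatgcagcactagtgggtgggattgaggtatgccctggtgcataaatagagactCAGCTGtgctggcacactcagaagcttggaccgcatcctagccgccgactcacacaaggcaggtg
AGR3: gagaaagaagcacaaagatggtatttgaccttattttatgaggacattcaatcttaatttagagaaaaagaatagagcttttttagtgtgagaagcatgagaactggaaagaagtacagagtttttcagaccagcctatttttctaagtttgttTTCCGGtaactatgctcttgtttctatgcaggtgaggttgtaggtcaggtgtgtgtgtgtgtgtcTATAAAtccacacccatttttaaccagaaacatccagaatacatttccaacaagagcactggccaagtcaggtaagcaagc
SPINK4: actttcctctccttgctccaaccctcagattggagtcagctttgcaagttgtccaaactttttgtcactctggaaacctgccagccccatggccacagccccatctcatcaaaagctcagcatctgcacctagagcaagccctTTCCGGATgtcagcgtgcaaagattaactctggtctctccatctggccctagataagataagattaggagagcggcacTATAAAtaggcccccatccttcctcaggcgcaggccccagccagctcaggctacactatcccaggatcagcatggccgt
AGR2 had a CAGCTG at -15 from its start, a match present in 17.9% of 35116 promoters of this length. AGR3 had TATAAA at -31 (11.5% of promoters) and CCGGAA on the reverse strand at -96 (17.2%). SPINK4 had TATAAA at -29 and, overlapping each other, CCGGAA on the reverse strand at -107 and CCGGAT at -105 (7.12%). The SPDEF promoter held none of the 5 motifs, and TGTTTAC (3.42%) was in none of the 7 promoters. CpG dinucleotides, the sites of DNA methylation, numbered 8 in SPDEF, 6 in AGR2, 1 in AGR3 and 5 in SPINK4, against a median of 14 over all promoters and 22 in ATOH1. These counts describe the letters of the reference and were not related to the array values.

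ATOH1, the entry point of the secretory lineage, was near background in both lines. Its signals were 4.22, 4.04 and 4.04 in HT-29 and 3.88, 3.91 and 3.91 in SW480 at 10000 ng/mL. At 0 ng/mL they were 4.04, 4.01 and 4.04 in HT-29 and 3.91, 4.07 and 4.06 in SW480, where the lines overlapped. Only the difference at 10000 ng/mL was called (0.20, 95% interval 0.05 to 0.35, limma adjusted p = 0.0375). It was no longer called without HT-29 10000 ng/mL replicate 1 (0.14, adjusted p = 0.138) or without any 1 of the 3 SW480 arrays at 10000 ng/mL (adjusted p = 0.101, 0.081 and 0.0785). SPDEF was thus well above background in HT-29 on arrays where ATOH1 was not.

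The trefoil genes lie side by side on chromosome 21 and did not follow one another. TFF1, a gastric-type peptide that stabilises mucus, had signals of 4.19, 4.20 and 4.19 in HT-29 and 3.94, 3.78 and 3.86 in SW480 at 10000 ng/mL. Its signals at 0 ng/mL were 4.20, 4.27 and 4.32 in HT-29 and 3.96, 4.04 and 3.85 in SW480. The lines did not overlap at either level, and HT-29 was higher by 0.33 at 10000 ng/mL (1.26-fold, limma adjusted p = 0.0028) and by 0.31 at 0 ng/mL (1.24-fold, limma adjusted p = 0.00394). TFF2, the peptide of gastric neck cells, ran the other way: all 3 HT-29 arrays at 10000 ng/mL read 4.53, and those of SW480 read 4.98, 4.96 and 5.04. At 0 ng/mL it read 4.61, 4.57 and 4.73 in HT-29 and 4.99, 4.81 and 4.48 in SW480, where the lines overlapped. The difference was called at 10000 ng/mL (-0.46, 0.725-fold, limma adjusted p = 0.00764) and not at 0 ng/mL (-0.12, adjusted p = 0.402). Without SW480 0 ng/mL replicate 3, the lowest of its group, the difference at 0 ng/mL was -0.26 (adjusted p = 0.0247). TFF3, the trefoil peptide of intestinal goblet cells, had group means from 3.89 to 4.06, and the lines differed by 0.12 at 10000 ng/mL (adjusted p = 0.36) and 0.13 at 0 ng/mL (adjusted p = 0.31).

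The remaining secreted products showed little difference between the lines. FCGBP, the IgG Fc binding protein of mucus, read 4.08 on all 6 HT-29 arrays and 4.04 on 5 of the 6 SW480 arrays, with 4.02 on the other. It had only 3 distinct values on the 12 arrays, where the median cluster had 10. Values equal on all 3 arrays of a group also occurred for TFF2 and TFF3, 3 of the 10 genes in all, against 23.2% of clusters, and how they arose was not tested. REG4, a lectin of the regenerating islet-derived family, ranged from 3.42 to 3.81 over the 12 arrays, with the lines overlapping at both FA levels. SPINK4, a goblet cell member of the Kazal inhibitors, differed by -0.03 at 10000 ng/mL (adjusted p = 0.69) and by -0.14 at 0 ng/mL (adjusted p = 0.0863), where the arrays did not overlap. Without HT-29 0 ng/mL replicate 3 the difference at 0 ng/mL was called (-0.15, adjusted p = 0.047).

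**Figure D2:**
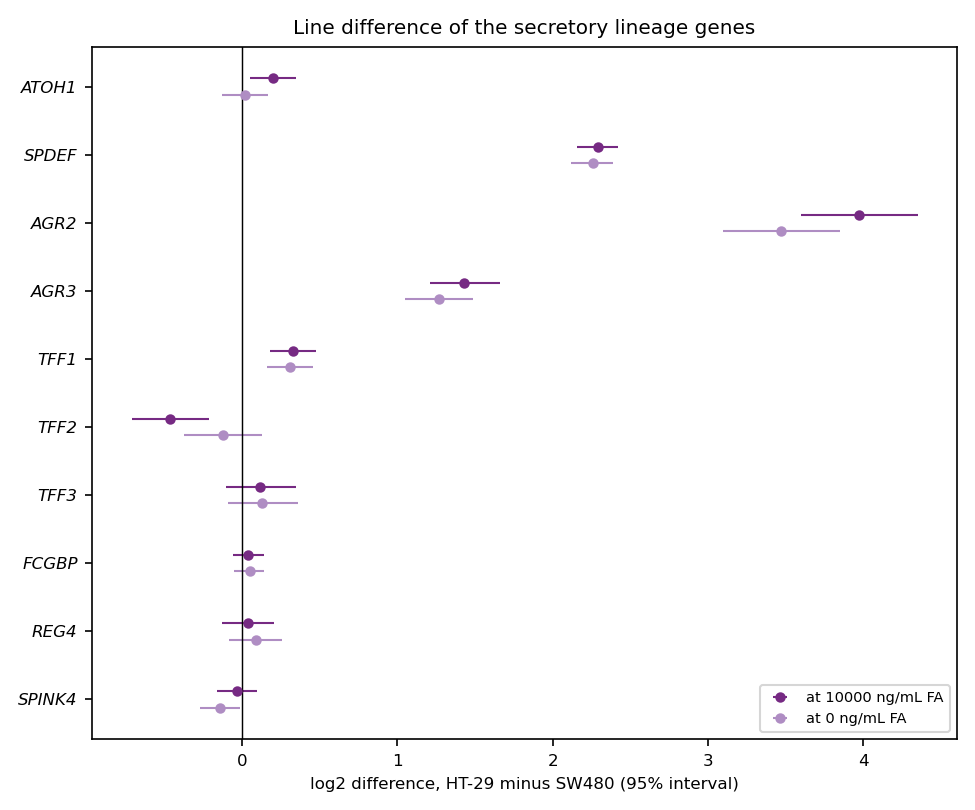
Log2 difference between the lines, HT-29 minus SW480 (horizontal axis), for each gene at 10000 ng/mL FA (dark) and at 0 ng/mL FA (light). Points are limma estimates from all 12 arrays and bars are 95% intervals. AGR2 (3.97 and 3.47), SPDEF (2.29 and 2.26) and AGR3 (1.43 and 1.27) stand apart to the right at both FA levels, and TFF2 (-0.46 and -0.12) lies on the left.

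The order of the 4 groups was the same for SPDEF, AGR2 and AGR3. HT-29 at 10000 ng/mL had the highest mean, then HT-29 at 0 ng/mL, SW480 at 0 ng/mL and SW480 at 10000 ng/mL. The SW480 groups overlapped for each of them, and the HT-29 groups overlapped for SPDEF and AGR3. The HT-29 groups of SPDEF lay only 0.02 apart, and without HT-29 0 ng/mL replicate 3 their order turned (-0.01). TFF1, called at both FA levels too, had another order, with HT-29 at 0 ng/mL highest. The clusters with the most similar course over the 12 arrays, by Pearson's r, were EREG (r = 0.9993), DSC2 (0.9993) and GEMIN8 (0.9992) for AGR2. They were ARVCF (0.9995), CBLC (0.9995) and KLC4 (0.9994) for SPDEF, and BCL2L10 (0.996), RAB3A (0.9947) and RCOR2 (0.9938) for AGR3. These r rest on the gap between the 2 lines, which all 12 arrays share, and they describe nothing within a line.

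The effect of FA, the comparison the arrays were made for, was 10000 minus 0 ng/mL within each line. With limma 0 of the 10 genes were called in HT-29 (0% of all clusters were) and 0 in SW480 (0.00592% of clusters). By the criteria of the study's methods 0 genes were called in either line, against 1.36% of clusters in HT-29 and 1.04% in SW480. At an unadjusted p under 0.05 there was 1 gene, AGR2, in HT-29 (5.44% of clusters) and 0 in SW480 (4.06%). Without HT-29 0 ng/mL replicate 3 there were 2 in HT-29, AGR2 and AGR3 (4.19% of clusters). With arrays weighted by their quality 1 gene, AGR3, was called in HT-29 (0.30, limma adjusted p = 0.0322), where 7.1% of all clusters were called, and 0 in SW480 (0.0222%). Those weights had not converged. The median absolute difference of the 10 genes was 0.07 in HT-29 and 0.05 in SW480, against 0.15 in HT-29 and 0.08 in SW480 over all clusters.

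AGR2 had the largest FA difference of the 10 genes. Its signals in HT-29 were 7.59, 7.77 and 7.82 at 10000 ng/mL and 7.53, 7.45 and 6.77 at 0 ng/mL, so the groups did not overlap. Such a separation upwards was found for 1.41% of clusters in HT-29. The difference was 0.48 (95% interval 0.10 to 0.85), a 1.39-fold signal (1.07 to 1.81), with a limma adjusted p of 0.587. Over the alternative settings the adjusted p ran from 0.0603 to 0.981. Without HT-29 0 ng/mL replicate 3 it was 0.24 (0.09 to 0.38, limma adjusted p = 0.981). In SW480 the arrays read 3.77, 3.77 and 3.72 at 10000 ng/mL and 3.77, 3.79 and 3.77 at 0 ng/mL, a difference of -0.02 (-0.40 to 0.35).

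HT-29 0 ng/mL replicate 3 had the lowest AGR2 signal of the HT-29 arrays. Relative to the mean of replicates 1 and 2, it was lower at 84.3% of the 3456 clusters with a signal of 7 to 8, with a median of -0.49 and a 5th to 95th percentile of -1.73 to 0.41. AGR2 deviated by -0.72, at the 33.6 percentile of that range, and SPDEF by -0.08, at the 79.7 percentile. Among the 24149 clusters under 4 the array read 0.40 higher in the median, and TFF3 and REG4 were higher there by 0.32 and 0.27. The same array thus read AGR2 low and TFF3 and REG4 high, as it did most clusters of their levels.

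**Figure D3:**
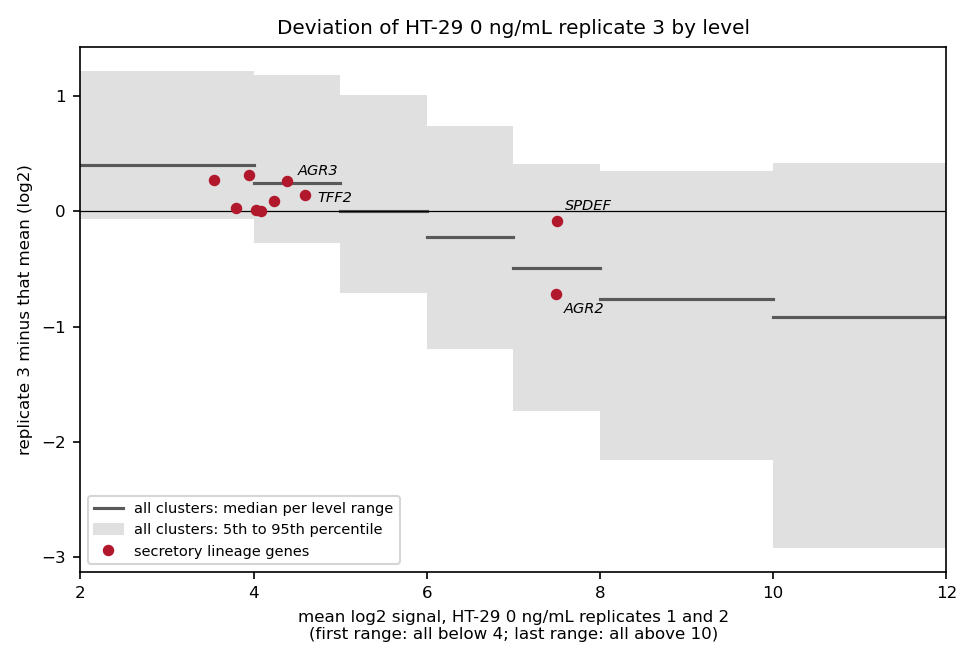
Deviation of HT-29 0 ng/mL replicate 3 from the mean of replicates 1 and 2 (vertical axis, log2) against that mean (horizontal axis, log2 signal). Grey steps span the 5th to 95th percentile of all clusters in a level range, dark lines their median, and red points are the secretory lineage genes. The medians fall with level to -0.49 between 7 and 8, where AGR2 (-0.72) and SPDEF (-0.08) lie.

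AGR3 and SPDEF gave no called FA effect. In HT-29 AGR3 read 4.46, 4.60 and 4.80 at 10000 ng/mL and 4.31, 4.47 and 4.65 at 0 ng/mL, overlapping groups that differed by 0.14 (-0.08 to 0.37, limma adjusted p = 0.587). Without HT-29 0 ng/mL replicate 3 the difference was 0.23 (0.02 to 0.44, limma adjusted p = 1). For SPDEF the interval was narrow, 0.02 in HT-29 (-0.12 to 0.15, or 0.921 to 1.11-fold) and -0.02 in SW480 (-0.15 to 0.12). A change of SPDEF signal by 1.5-fold in either direction lies outside both intervals.

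Among the trefoil genes, TFF2 had FA differences of opposite sign in the lines, and neither passed the test. In HT-29 the sign turned with median centring (0.05) and after another quantile normalization (0.06), so that both lines then had a positive difference. In HT-29 its arrays at 10000 ng/mL (4.53 on all 3) lay below those at 0 ng/mL (4.61, 4.57 and 4.73), a separation downwards that 3.84% of clusters showed. The difference was -0.11 (-0.36 to 0.14, limma adjusted p = 0.642). In SW480 it was 0.23 (-0.02 to 0.48, limma adjusted p = 1), with overlapping arrays. The FA differences of TFF1 were -0.07 in HT-29 and -0.09 in SW480, and those of TFF3 were -0.04 in HT-29 and -0.03 in SW480.

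ATOH1 and the last secreted products stayed within a narrow band. ATOH1 differed by 0.07 (-0.08 to 0.22) in HT-29 and by -0.11 (-0.26 to 0.04) in SW480. REG4 differed by -0.11 (-0.28 to 0.06) in HT-29 and by -0.06 (-0.23 to 0.11) in SW480. SPINK4 differed by 0.01 (-0.12 to 0.14) in HT-29 and by -0.09 (-0.22 to 0.04) in SW480, and FCGBP by 0.00 (-0.10 to 0.10) in HT-29 and by 0.01 (-0.09 to 0.10) in SW480. All of these intervals exclude a 1.5-fold change of signal, but the signals lie near background, where such a bound does not carry over to expression.

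**Figure D4:**
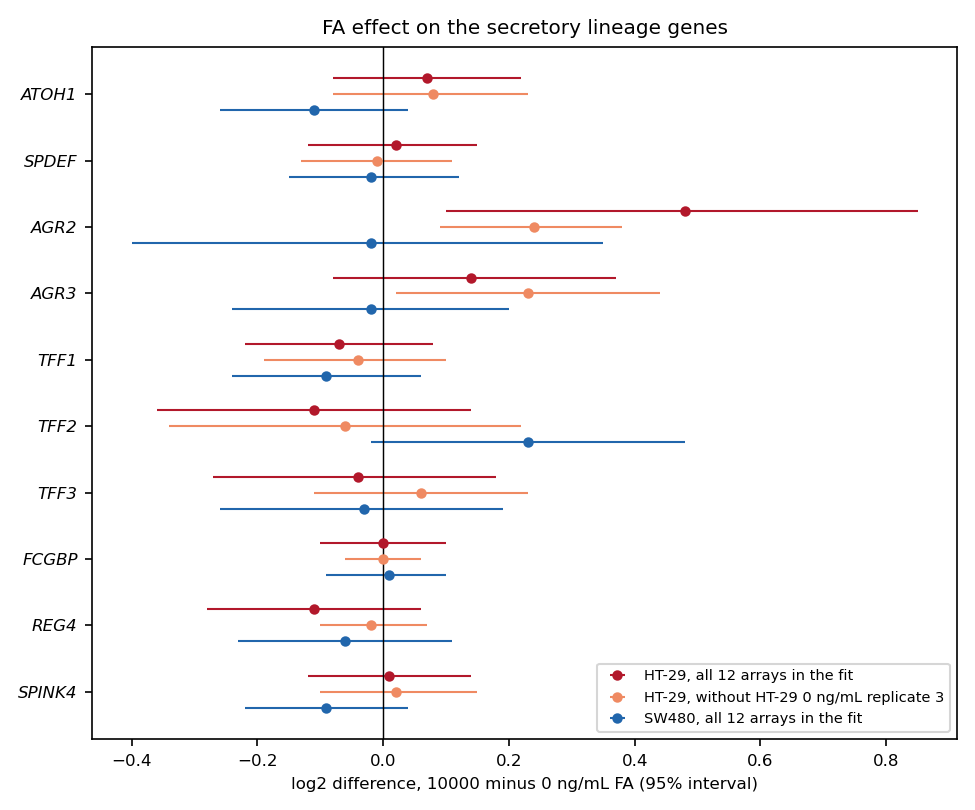
Log2 difference between 10000 and 0 ng/mL FA (horizontal axis) for each gene in HT-29 with all arrays (dark red), in HT-29 without HT-29 0 ng/mL replicate 3 (orange) and in SW480 (blue). Points are limma estimates and bars 95% intervals. The AGR2 estimate in HT-29 is 0.48 with all arrays and 0.24 without that array, and apart from these and AGR3 without that array (0.23) the intervals span 0.

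The FA effects of the lines were set against each other by an interaction contrast, HT-29 minus SW480. With limma 0 of the 10 genes were called, as were 0% of all clusters, and 0 were at an unadjusted p under 0.05 (3.29% of clusters) or met the criteria of the study's methods (1.53%). The largest was AGR2 with 0.50 (-0.03 to 1.03, up to 2.05-fold, limma adjusted p = 0.939), and TFF2 had -0.34 (-0.69 to 0.01, limma adjusted p = 0.939). Without HT-29 0 ng/mL replicate 3, AGR2 had 0.26 (0.06 to 0.46, up to 1.37-fold, limma adjusted p = 0.774). It was then the 1 gene at an unadjusted p under 0.05, against 6.19% of clusters, and TFF2 was the largest with -0.29 (-0.67 to 0.08, limma adjusted p = 0.78). The median of the 10 genes was 0.07 without that array and 0.03 with it. With or without it, 0 of the 10 genes passed the adjusted test of a difference in FA response between the lines.

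Regulators upstream of these genes were followed with a list of 31 genes of secretory fate and Notch signalling, 29 of them measured. After FA, 0 were called by limma in either line, while 4 met the criteria of the study's methods in HT-29, all higher, as 0.58% of all clusters did: HES1, CREB3L1, SOX9 and SOX4. HES1 was the 1 gene that met them without HT-29 0 ng/mL replicate 3. HES1, the Notch effector that represses ATOH1, read 11.9, 13.28 and 12.42 in HT-29 at 10000 ng/mL and 10.21, 10.74 and 9.55 at 0 ng/mL (2.37, limma adjusted p = 0.587, and 2.06 without HT-29 0 ng/mL replicate 3). In SW480 HES1 read 13.91, 13.77 and 14.26 at 10000 ng/mL and 14.13, 14.11 and 14.45 at 0 ng/mL. HES1 exceeded the olfactory 95th percentile on all arrays of each group. ATOH1 was near background on all 12 arrays, so its signal cannot show whether it followed HES1, and this was not tested.

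Between the lines 10 of these 29 genes were called higher and 13 lower in HT-29 at 10000 ng/mL, and 10 higher and 12 lower at 0 ng/mL, with medians of -0.14 at 10000 ng/mL and -0.03 at 0 ng/mL. Over all clusters 15.1% were higher and 26% lower at 10000 ng/mL, and 18% higher and 24.7% lower at 0 ng/mL. HES1, SOX9 and NOTCH2 had lower means in HT-29 than in SW480 at both FA levels. HES1 had 12.53 in HT-29 and 13.98 in SW480 at 10000 ng/mL, and 10.17 and 14.23 at 0 ng/mL. Without HT-29 0 ng/mL replicate 3 the differences at 0 ng/mL were -3.75 for HES1, -1.92 for SOX9 and -1.64 for NOTCH2. These genes exceeded the olfactory 95th percentile on all arrays. The FOXA factors, which act in goblet cell differentiation, were higher in HT-29. FOXA1 differed by 3.18 at 10000 ng/mL and 2.61 at 0 ng/mL (limma adjusted p = 8.89e-07 at 10000 ng/mL and 3.82e-06 at 0 ng/mL), FOXA2 by 1.44 at 10000 ng/mL and 1.55 at 0 ng/mL, and FOXA3 by 0.85 at 10000 ng/mL and 0.91 at 0 ng/mL. FOXA1 was above the olfactory 95th percentile on 6 HT-29 arrays and 0 SW480 arrays, and FOXA2 on all 12. FOXA3 exceeded it on 1 HT-29 array and 0 SW480 arrays, so its difference is one near background. ELF3, an epithelial ETS factor, was higher by 1.63 at 10000 ng/mL and 1.39 at 0 ng/mL. CREB3L1, an endoplasmic reticulum-bound factor of secretory cells, was higher by 2.92 at 10000 ng/mL and 2.08 at 0 ng/mL. It exceeded that percentile on all HT-29 arrays, but in SW480 on 2 arrays at 10000 ng/mL and 1 at 0 ng/mL, so its SW480 signal was near background. GFI1, which keeps secretory progenitors from the endocrine fate, was lower in HT-29, with differences of -0.85 at 10000 ng/mL and -0.78 at 0 ng/mL. Its HT-29 arrays lay between 4.02 and 4.19 and its SW480 arrays at 4.87 on all 6 arrays. GFI1 exceeded the olfactory 95th percentile on 0 HT-29 arrays and on 2 SW480 arrays at each FA level, so this difference too is one near background.

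A further 39 genes of goblet cells, 38 of them measured, differed between the lines more often upwards than downwards in HT-29. At 10000 ng/mL 19 were called higher and 8 lower (median 0.35), beside 15.1% of all clusters higher and 26% lower. The counts at 0 ng/mL were 20 higher and 8 lower (median 0.40), beside 18% of clusters higher and 24.7% lower. The largest differences were those of GCNT3 and GALNT3, enzymes that attach and branch the sugars of mucins. GCNT3, the core-branching enzyme of mucin glycans, read 11.33, 11.19 and 10.71 in HT-29 and 3.86, 3.77 and 3.86 in SW480 at 10000 ng/mL (7.25, limma adjusted p = 2.16e-08), and differed by 6.74 at 0 ng/mL. GALNT3, which starts O-glycan chains, differed by 3.88 at 10000 ng/mL (limma adjusted p = 5.67e-11) and by 3.79 at 0 ng/mL (limma adjusted p = 5.87e-11). Both genes were above the olfactory 95th percentile on 6 HT-29 arrays and 0 SW480 arrays, so these differences, like that of AGR2, set a clear signal against one near background. MUC2, the gel-forming mucin of goblet cells, showed a small difference of 0.40 at 10000 ng/mL (limma adjusted p = 0.000109) and of 0.38 at 0 ng/mL (limma adjusted p = 0.000157), on signals of 4.93, 4.94 and 4.94 in HT-29 and 4.55, 4.55 and 4.52 in SW480 at 10000 ng/mL. MUC2 exceeded the olfactory 95th percentile on 3 HT-29 arrays at 10000 ng/mL, on 2 at 0 ng/mL and on 0 SW480 arrays. Its difference is therefore one near background. The gastric-type mucin MUC5AC differed by 1.30 at 10000 ng/mL and 1.08 at 0 ng/mL, and ERN2, the stress sensor of mucous cells, by 1.12 at 10000 ng/mL and 1.06 at 0 ng/mL. In SW480 MUC5AC exceeded the olfactory 95th percentile on 1 array at 10000 ng/mL and 0 at 0 ng/mL, and ERN2 on 0 at either level. The differences of MUC5AC and ERN2 thus also set HT-29 against a signal near background. On the lower side, KLK1, a kallikrein, differed by -1.32 at 10000 ng/mL and -1.33 at 0 ng/mL, and SERPINA1, a protease inhibitor, by -1.28 at 10000 ng/mL and -1.77 at 0 ng/mL. KLK1 exceeded the olfactory 95th percentile on 0 HT-29 arrays and on all SW480 arrays, so its HT-29 signal was near background. After FA 0 of the 38 were called by limma in either line, and 1, the membrane mucin MUC13, met the criteria of the study's methods in HT-29 (1.05, limma adjusted p = 0.587), where 0.58% of clusters met them upwards. When HT-29 0 ng/mL replicate 3 was left out, MUC13 differed by 0.49 and 0 of the 38 met them, while the median line difference at 0 ng/mL was 0.28.

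**Figure D5:**
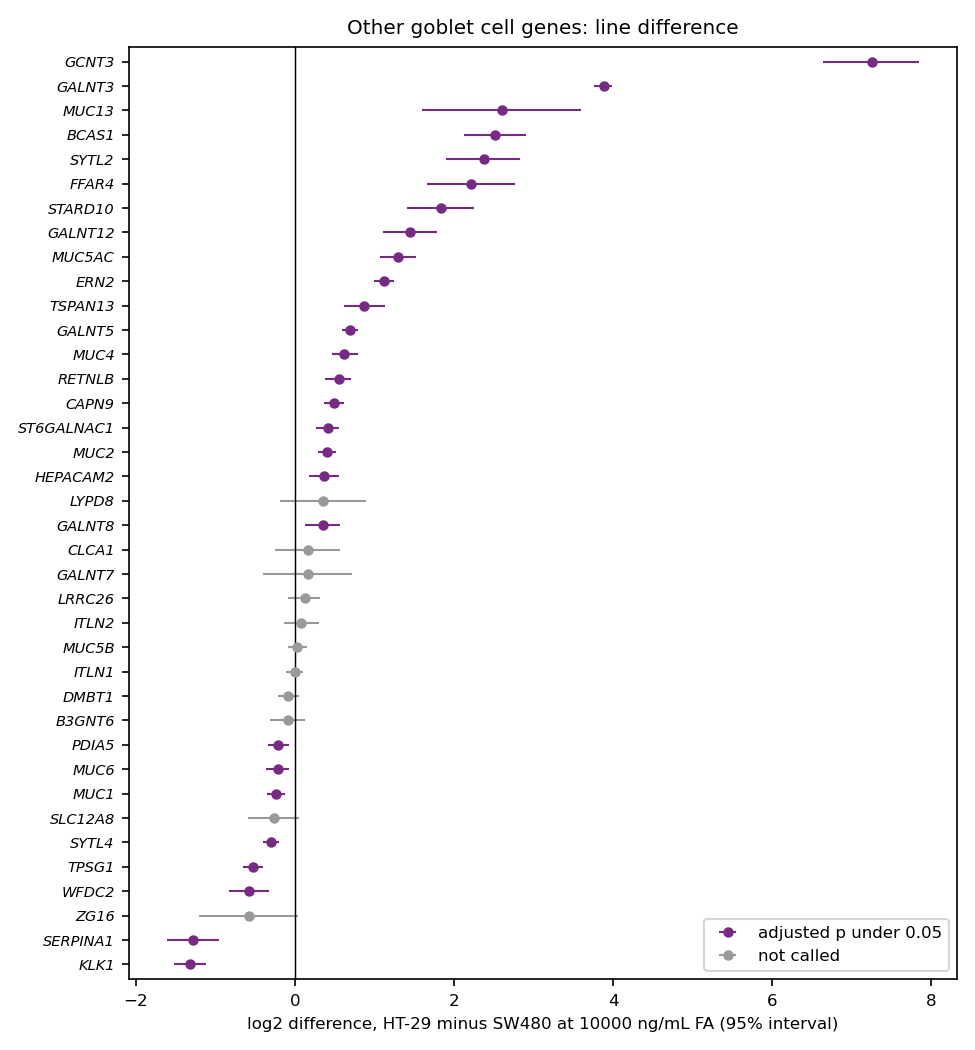
Log2 difference between the lines, HT-29 minus SW480 at 10000 ng/mL FA (horizontal axis), for the 38 measured genes of the further goblet cell list. Points are limma estimates, bars 95% intervals, purple marks an adjusted p under 0.05 and grey the rest. GCNT3 (7.25) and GALNT3 (3.88) lie farthest to the right and KLK1 (-1.32) farthest to the left.

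AGR2 and AGR3 belong to the protein disulfide isomerases, enzymes that form and shuffle disulfide bonds in the endoplasmic reticulum. Of the other 23 genes of that family and its oxidases, fewer were called higher than lower in HT-29, as was so over all clusters. At 10000 ng/mL 3 were higher and 8 lower (median -0.09), where 15.1% of clusters were higher and 26% lower. Without FA 1 was higher and 8 were lower (median -0.17, at 0 ng/mL), where 18% of clusters were higher and 24.7% lower. ERP27, a family member that lacks the redox-active cysteines, was higher by 1.45 at 10000 ng/mL and 1.16 at 0 ng/mL. It exceeded the olfactory 95th percentile on 3 HT-29 arrays at 10000 ng/mL, on 2 at 0 ng/mL and on 0 SW480 arrays, so its SW480 signal was near background. ERO1B, the oxidase that recharges the isomerases, was lower in HT-29, with differences of -2.75 at 10000 ng/mL and -2.74 at 0 ng/mL. TXNDC16, a thioredoxin domain protein, had -1.10 at 10000 ng/mL and -1.22 at 0 ng/mL. After FA 0 were called by limma in either line, with a median of 0.33 in HT-29, where 2 (TMX4 and ERO1A, both higher, as 0.58% of clusters were) met the criteria of the study's methods, and of 0.03 in SW480. The HT-29 median was 0.05 and 0 met them when HT-29 0 ng/mL replicate 3 was left out. Without that array 5 of the 23 were called higher between the lines at 10000 ng/mL (22.4% of clusters) and 3 at 0 ng/mL (20.3%), with 10 lower at each (34.6% of clusters at 10000 ng/mL and 33.6% at 0 ng/mL).

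Of the relatives of REG4 and SPINK4, 8 of 9 were measured, and after FA 0 were called by limma in either line. SPINK1, the trypsin inhibitor, was higher in HT-29: it read 7.95, 8.07 and 8.23 in HT-29 and 3.94, 3.98 and 3.94 in SW480 at 10000 ng/mL, a difference of 4.13 (limma adjusted p = 1.75e-06), and it differed by 3.55 at 0 ng/mL (limma adjusted p = 5.34e-06). On SW480 arrays SPINK1 was above the olfactory 95th percentile 0 times. SPINK7 was also called at both FA levels (0.39 at 10000 ng/mL and 0.53 at 0 ng/mL), on signals near background. Of the 8, 2 were called higher at each FA level, beside 15.1% of clusters at 10000 ng/mL and 18% at 0 ng/mL. With all arrays 0 were called lower, beside 26% of clusters at 10000 ng/mL and 24.7% at 0 ng/mL. Without HT-29 0 ng/mL replicate 3, 3 were higher at 10000 ng/mL (22.4% of clusters) and 2 at 0 ng/mL (20.3%). Then 1 was lower at each FA level (34.6% of clusters at 10000 ng/mL and 33.6% at 0 ng/mL). At both FA levels SPINK1 thus differed between lines in which SPINK4 stayed near background.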

How the data were processed

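Log2 signals of 67528 transcript clusters on 12 Human Transcriptome Array 2.0 chips were used as deposited, with 0 missing values and 0 columns left aside. The authors made them with SST-RMA, which corrects background, normalizes and summarises per cluster, in Transcriptome Analysis Console 4.0 (the submitters' processing notes name RMA). SST-RMA also stretches the signal scale, so folds follow that scale. The deposited values did not share a common distribution. Array medians ran from 4.30 for HT-29 10000 ng/mL replicate 2 to 4.75 for HT-29 0 ng/mL replicate 3. The build and annotation version of the array are not given in the sources used here.

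The platform table gave the gene names, used where a cluster had 1 symbol (23781 of 67528). Group means were fitted with limma 3.58.1 (R 4.3.3), leaving 8 residual degrees of freedom, and variances were moderated. The Benjamini-Hochberg adjustment ran over all 67528 clusters. A gene was called at an adjusted p under 0.05. The script was tested on simulated data. Arrays give no read depth, and their number limits the precision. All 10 genes are described, and from each further list up to 4 genes with the smallest p per contrast, with HES1, MUC2, GFI1 and FOXA3 always, and the 3 clusters with the most similar course. MUC5AC, CREB3L1, TSPAN13, KLK1, SERPINA1, SOX4, SOX9, NOTCH2 and LYZ are given although some contrasts fall outside that rule, and were chosen after their values were seen. The genes and lists were chosen with earlier results of these data known.

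Same-numbered replicates did not deviate together throughout (correlations of deviations from the group means from -0.27 to 0.40). The highest was that of replicate 3 of SW480 at the 2 FA levels. At 0 ng/mL the lines gave 0.27 for replicate 1 and -0.27 for replicate 2. No pairing was used in the main fit. Alternatives were the methods' criteria, median centring, a repeated quantile normalization, a filter that left out the 33.3% lowest clusters, separate fits, array weights, a replicate block, and leaving out each array. A fit of HT-29 alone without HT-29 0 ng/mL replicate 3 was chosen after seeing the data. Promoter sequences are from RefSeq (GRCh38.p14). Plots were made in Python 3.11.15 with matplotlib 3.10.9.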

Additional observations from a re-analysis of the deposited data

How the results depend on the processing

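The differences of SPDEF, AGR2, AGR3 and TFF1 between the lines kept their direction and their call at both FA levels under every alternative run that tested them, except that TFF1 did not reach the fold of the methods' criteria. The filter on the lowest clusters left 45042 and 5 of the 10 genes, and dropped AGR3. The number of arrays and signals near background limit the rest. By the methods' criteria 3 genes were called between the lines at 10000 ng/mL, in place of 6. With array weights 1 gene was called after FA in HT-29, in place of 0 (7.1% of clusters, in place of 0%), and 7 between the lines at 0 ng/mL, in place of 4 (68.9% of clusters, in place of 42.7%). The weights stopped before they converged and ran from 0.0333 for HT-29 0 ng/mL replicate 3 to 14.8 for replicate 1. Leaving out single arrays gave counts of 0 to 0 for FA in either line and for the difference of FA effects, 4 to 5 between the lines at 0 ng/mL and 5 to 6 at 10000 ng/mL.

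Several small differences turned their sign, none of them called in the main or the turned form. After another quantile normalization, FA in HT-29 gave SPDEF -0.13, TFF1 0.09, TFF2 0.06, TFF3 0.11 and REG4 0.02, FA in SW480 gave SPDEF 0.01 and AGR2, AGR3 and TFF3 0.03, the difference of FA effects gave SPDEF -0.15, TFF3 and FCGBP 0.09 and REG4 0.02, and the lines at 0 ng/mL gave ATOH1 -0.04 and FCGBP -0.01. With each array centred on its median, FA in HT-29 gave TFF1 0.08, TFF2 0.05, TFF3 0.11 and REG4 0.05, FA in SW480 gave SPDEF 0.04, AGR2 and AGR3 0.03 and TFF3 0.02, the difference of FA effects gave TFF3 and FCGBP 0.09 and REG4 0.05, and the lines at 10000 ng/mL gave SPINK4 0.06. With array weights, FA in HT-29 gave TFF3 0.02 and SPINK4 -0.01, FA in SW480 gave TFF3 0.00, and the difference of FA effects gave TFF3 0.01 and REG4 0.03. The fit of HT-29 alone without HT-29 0 ng/mL replicate 3 gave SPDEF -0.01 and TFF3 0.06. Leaving out single arrays, FA in HT-29 ran from -0.01 to 0.06 for SPDEF, -0.12 to 0.06 for TFF3 and -0.01 to 0.03 for SPINK4, and FA in SW480 from -0.03 to 0.01 for SPDEF and -0.10 to 0.04 for TFF3. The difference of FA effects ran from -0.03 to 0.07 for TFF1, -0.09 to 0.10 for TFF3 and -0.09 to 0.04 for REG4. The lines ran from -0.04 to 0.04 for ATOH1 at 0 ng/mL and from -0.09 to 0.00 for SPINK4 at 10000 ng/mL. The causes were not tested.

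Between the lines at 10000 ng/mL, ATOH1 also lost its call after another quantile normalization (0.24, adjusted p = 0.0942), with median centring (0.29, adjusted p = 0.0503) and with the replicate block (0.20, adjusted p = 0.0753), all by limma. The block changed no other call of the 10 genes. TFF2 lost its call after another quantile normalization (-0.30, limma adjusted p = 0.0525), and TFF3 gained one with median centring (0.21, limma adjusted p = 0.0344) and in a separate fit (0.12, limma adjusted p = 0.0115). Taking all clusters of a gene changed nothing, since each gene has 1.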

Other observations

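Markers of other secretory or absorptive cells were read beside the 10 genes. LYZ, the lysozyme of Paneth cells, had signals of 18.75, 18.82 and 18.75 in HT-29 and 5.05, 5.06 and 5.14 in SW480 at 10000 ng/mL, a log2 difference of 13.69 (limma adjusted p = 1.61e-10), and at 0 ng/mL the difference was 13.28. The SW480 signals lay close to the olfactory 95th percentile of those arrays, so the difference sets a strong signal against one close to background. It was the only 1 of 6 measured Paneth markers called between the lines at either FA level, and lysozyme is also made by cells other than Paneth cells. Of 11 enterocyte markers 0 were above the olfactory 95th percentile on all HT-29 arrays of either FA level, 1 was so in SW480 at 10000 ng/mL and 0 in SW480 at 0 ng/mL. The 5 fibroblast markers gave the same counts. Of 9 enteroendocrine markers 1 was above it in HT-29 at 10000 ng/mL and 0 in the other groups. Of 6 tuft cell markers 2 were above it in HT-29 at 10000 ng/mL, 0 in HT-29 at 0 ng/mL, 2 in SW480 at 10000 ng/mL and 1 in SW480 at 0 ng/mL. DCLK1, a kinase used as a tuft cell marker, read 8.90, 9.17 and 9.07 in SW480 at 10000 ng/mL and 8.62, 8.20 and 8.25 at 0 ng/mL, and was below that percentile on all HT-29 arrays. Its FA difference in SW480 was 0.69 (limma adjusted p = 0.482), which met the criteria of the study's methods upwards, as 0.336% of clusters did. The list mean of the enterocyte markers ran from 3.92 to 3.97 in HT-29 at 10000 ng/mL and from 3.95 to 4.23 at 0 ng/mL, and from 3.82 to 3.85 in SW480 at 10000 ng/mL and from 3.85 to 3.95 at 0 ng/mL. Their part in the values of the 10 genes was not tested.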
